A study of Rattus norvegicus with 6 samples.

Results

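The receptors described here are the adrenergic, serotonin, vasopressin and neuropeptide Y receptors through which the transmitters and hormones of the artery wall set its tone. They were selected by gene symbol from a list of 9 (Adra1a, Adra1b, Adra1d, Adra2b, Adrb1, Htr1b, Htr2a, Avpr1a and Npy1r). Of these, 8 had a probe set that the platform's annotation gives to that gene alone, among 10411 genes measured in all. Npy1r had no such probe set and was not analysed here. The 8 receptors had 11 probe sets, of which 4 belonged to Htr2a, and where a gene had several the brightest one on average stands for it.

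The arteries came from Dahl rats, a line whose blood pressure climbs on salty food, and were the middle cerebral, posterior cerebral and posterior cerebellar branches that leave the basilar artery and the circle of Willis. High salt rats ate chow with 8% NaCl from 7 weeks of age, for 11 weeks by one label and 12 weeks by another, and low salt rats ate chow with 0.4% NaCl from the same age for 12 weeks. All rats had eaten the 0.4% chow before. Each array held RNA pooled from 3 rats, with 3 arrays (9 rats) per diet, so single rats cannot be seen. The RNA came from whole arteries, and in such samples fewer cells of a type and less RNA per cell cannot be told apart.

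Sympathetic nerve endings in the outer coat of these arteries release noradrenaline, often with neuropeptide Y, while serotonin and vasopressin arrive from nerves, platelets or blood. Alpha1 adrenoceptors, Htr2a and Avpr1a act through Gq proteins, which raise calcium in smooth muscle and contract it. Adra2b, Htr1b and Npy1r act through Gi proteins, which lower cAMP, and Adrb1 acts through Gs, which raises cAMP and relaxes the muscle.

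The tissue label was checked against cell type genes. Smooth muscle contractile genes, led by Tpm2 (13.7), were bright on every array, with a mean over 13 genes of 11.8 to 11.9 log2 units on high salt and 11.7 to 12.4 on low salt, and the endothelial mean over 8 genes, led by Cldn5 (12.8), ran from 9.82 to 10.1 on high salt and from 9.52 to 9.90 on low salt. Genes of astrocytes, the glia whose end feet wrap brain vessels, were also present, with a mean over 10 genes of 10.2 to 10.6 on high salt. On low salt the astrocyte mean was 9.22, 10.6 and 8.55 for replicates 1, 2 and 3. Low salt replicates 1 and 3 thus stood below the other 4 arrays for these genes. Means for macrophages (7 genes) ran from 9.16 to 9.49 on high salt and from 8.48 to 9.23 on low salt, for red blood cells (3 genes) from 10.5 to 11.2 on high salt and from 10.03 to 10.2 on low salt, and for sympathetic nerve (6 genes) from 7.28 to 7.56 on high salt and from 7.40 to 7.70 on low salt. Of the 6 sympathetic nerve genes only Npy (10.3) lay above the range of the genes of other tissues described below. The means of pericyte, fibroblast, neuron, oligodendrocyte and Schwann cell genes overlapped between diets. Low salt replicate 1 also had the narrowest distribution of values, with an interquartile range of 2.57 against 2.92 to 3.18 on the other arrays.

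Most of these receptors gave a dim signal. The deposited table has no detection calls, so the signals were set beside 22 genes that belong to other tissues, such as insulin (Ins1), luteinising hormone (Lhb) and uromodulin (Umod). The means of those genes ran from 4.86 to 7.96 log2 units. Only Adra1b, among the 8 receptors, had a higher mean than all 22 of them, whereas 62.5% of all 10411 genes did. Brightness depends on the probes of a set as well as on the amount of RNA, so the order below is one of probe set signals and not of transcript amounts, and a dim probe set does not show that a receptor is absent.

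**Figure D1:**
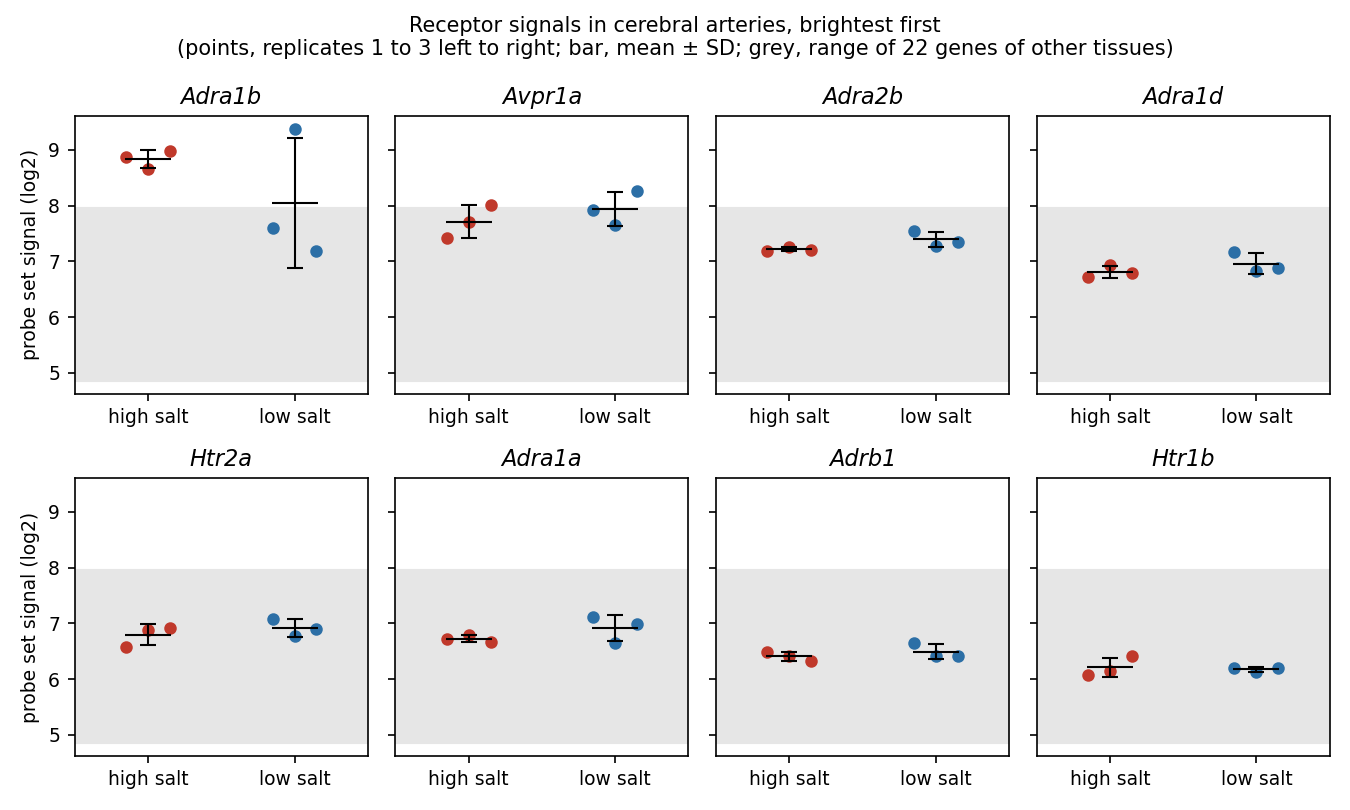
Probe set signal (log2 units) of the 8 receptors in each array, high salt left and low salt right, with points for replicates 1 to 3, bars for the mean ± SD and a grey band for the range of 22 genes of other tissues (4.86 to 7.96). Adra1b is above the band in all high salt points and in low salt replicate 2, and falls into it on low salt replicates 1 and 3, while the last 6 receptors lie inside the band on every array.

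By mean signal over the 6 arrays the order was Adra1b (8.44), Avpr1a (7.83), Adra2b (7.31), Adra1d (6.88), Htr2a (6.86), Adra1a (6.82), Adrb1 (6.45) and Htr1b (6.20). Among all probe sets the first stood at the 55.5 percentile and the last at the 18.2 percentile. Neighbours differed by less than the SD of their gap across arrays in 3 places. Adra1b exceeded Avpr1a by 0.62 ± 1.09 (SD, n = 6 arrays), and was the brighter one on 4 of 6 arrays. Adra1d, Htr2a and Adra1a could not be ordered, with gaps of 0.03 ± 0.09 and 0.04 ± 0.14. The other steps exceeded their spread, the clearest being Adra2b over Adra1d by 0.42 ± 0.06, seen on 6 of 6 arrays. The order was the same on the high salt arrays alone and on the low salt arrays alone.

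Adra1b, the alpha1B adrenoceptor, was the brightest receptor and the most variable, with an SD over the 6 arrays of 0.86 against 0.11 to 0.30 for the other 7. Its signal was 8.87, 8.66 and 8.98 log2 units in high salt replicates 1 to 3, against 7.59, 9.38 and 7.19 in low salt replicates 1 to 3. The high salt arrays lay within 0.33 of each other, while the low salt arrays spanned 2.19 log2 units and enclosed them. The difference, high salt minus low salt, was 0.78 ± 0.57 log2 units (SE, 3 arrays per diet), with a 95% interval of -0.61 to 2.18, and it did not pass the test (adjusted p = 0.803, limma with Benjamini-Hochberg adjustment over all probe sets). Low salt replicate 2 weighed most on this value. Without it the difference was 1.45, which also missed the threshold (adjusted p = 0.0913, limma), and without low salt replicate 3 it was 0.35.

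The arrays on which Adra1b was low were those on which astrocyte genes were low. Its signal was lower in low salt replicates 1 and 3 than in all 4 other arrays, as was that of 8 of 10 astrocyte markers (Gfap, Aqp4, Mlc1, Gja1, Slc1a3, Aldoc, Gjb6 and S100b). The same held for 2 of 3 red blood cell markers, 3 of 5 oligodendrocyte markers, 3 of 8 neuronal markers, 2 of 8 endothelial markers, 1 each of 7 macrophage, 6 pericyte and 6 fibroblast markers, and 0 of 13 contractile, 6 sympathetic nerve and 3 Schwann cell genes, beside 20.7% of all genes. The opposite, low salt replicates 1 and 3 above the other 4 arrays, held for 7 of 13 contractile genes, 4 of 8 neuronal markers, 0 of 10 astrocyte markers, 8 of 22 genes of other tissues and 2 of the 8 receptors, beside 14.8% of all genes. The brightest gene of other tissues was exceeded by only 2 of 8 neuronal, 2 of 5 oligodendrocyte and 1 of 6 sympathetic nerve markers. The counts for the neuronal and sympathetic nerve lists therefore say little about those cells. Of the 2 bright neuronal markers, Nefm was lower and Syn1 higher in low salt replicates 1 and 3 than in all 4 other arrays. Both bright oligodendrocyte markers, Cnp (10.9) and Mbp (10.4), were lower there, as the astrocyte markers were. This way of splitting the arrays was chosen after the values were seen, and the part of these cells in the Adra1b signal was not tested. Over the 6 arrays the genes most like Adra1b were Igdcc4 (Pearson r = 0.994) and C1qtnf3 (r = 0.991), out of 5206 genes at or above the median level. As a description this carries little weight, since 47 of those genes had an r above 0.95 over 6 arrays that share the same contrast between low salt replicates 1 and 3 and the rest.

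**Figure D2:**
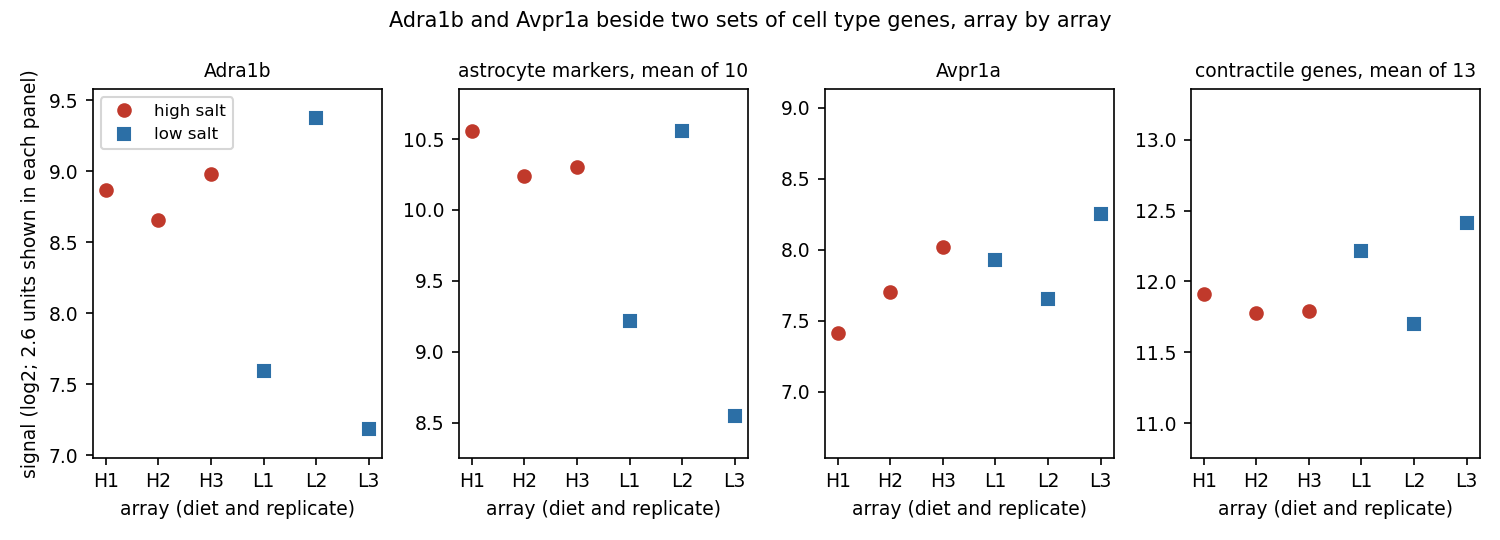
Signal (log2 units) on each array for Adra1b, the mean of 10 astrocyte markers, Avpr1a and the mean of 13 contractile genes, with high salt arrays (H1 to H3) left of low salt arrays (L1 to L3) and the same span of values in each panel. Adra1b and the astrocyte mean are both low on L1 and L3 and high on L2, and Avpr1a and the contractile mean are both highest on L3 but do not follow each other on H1 and H3.

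The probe sets of the other alpha1 adrenoceptors did not show this pattern. Adra1a, the alpha1A form, read 6.72, 6.80 and 6.67 on high salt and 7.11, 6.65 and 6.98 on low salt. Adra1d, the alpha1D form, read 6.71, 6.93 and 6.79 on high salt and 7.17, 6.82 and 6.88 on low salt. In both genes low salt replicate 1 was the highest array and the diets overlapped. The differences were -0.18 ± 0.14 for Adra1a and -0.14 ± 0.13 for Adra1d (SE, limma adjusted p = 0.803 and 0.809). Adra1a and Adra1d were brighter than 13 of the 22 genes of other tissues and lay within their range on every array. Low salt replicate 1 was also the highest array in 16 of those 22. Probe sets this dim may not show whether the 2 receptors share the pattern of Adra1b.

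Adra2b, an alpha2 adrenoceptor, was the 1 receptor of 8 whose diets did not overlap. Its signal was 7.19, 7.26 and 7.21 on high salt, against 7.55, 7.28 and 7.35 on low salt, so that the nearest arrays of the diets were 7.26 and 7.28. Over all probe sets 11.2% did not overlap between diets, 7.23% with high salt on the higher side and 3.93% on the lower, and 1 of 8 is close to that background. The difference was -0.17 ± 0.11 log2 units (SE, 95% interval -0.44 to 0.09, limma adjusted p = 0.803). Its level was above 17 of the 22 genes of other tissues, and in 3 of those 22 the diets also did not overlap, with high salt lower. Among 5206 genes at or above the median level, those most like Adra2b were Slc22a18 (Pearson r = 0.995) and Cog1 (r = 0.994). Both were highest on low salt replicate 1, as Adra2b was. Likeness over 6 arrays carries little weight, and 31 of the 5206 had an r above 0.95.

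Adrb1, the beta1 adrenoceptor, had the smallest SD over the 6 arrays of the 8 receptors (0.11). It read 6.49, 6.42 and 6.33 on high salt and 6.65, 6.42 and 6.41 on low salt. The difference of -0.08 ± 0.11 (SE) had a 95% interval of -0.35 to 0.19 (limma adjusted p = 0.858), and 10 of the 22 genes of other tissues were dimmer.

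The serotonin receptors were dim on both diets. Htr2a, which mediates contraction to serotonin in many arteries, read 6.58, 6.89 and 6.93 on high salt and 7.08, 6.77 and 6.90 on low salt with its brightest probe set. Its other 3 probe sets had means of 6.72, 5.01 and 4.79, the last at the 0.233 percentile of all probe sets. Their differences between diets were 0.06 ± 0.10, -0.03 ± 0.09 and -0.00015 ± 0.09 (SE), against -0.12 ± 0.14 for the brightest, so the probe sets of this gene did not give one direction. Htr1b, a Gi-coupled receptor of cerebral vessels and nerve endings, was the dimmest of the 8. Its signal was 6.08, 6.15 and 6.41 on high salt and 6.21, 6.13 and 6.20 on low salt, a difference of 0.03 ± 0.12 (SE, limma adjusted p = 0.947), and its sign turned after median centring of the arrays (-0.10).

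Avpr1a, the V1a receptor by which vasopressin contracts arteries, was the second brightest. Its signal was 7.41, 7.71 and 8.02 on high salt, against 7.93, 7.65 and 8.25 on low salt, and the diets overlapped. The difference was -0.23 ± 0.22 log2 units (SE, 95% interval -0.77 to 0.31, limma adjusted p = 0.809). Its mean exceeded 20 of the 22 genes of other tissues, and its SD over the 6 arrays (0.30) exceeded that of all 22, whose SDs ran from 0.04 to 0.27. The array with the highest Avpr1a signal, low salt replicate 3, was also the one with the highest contractile mean (12.4), but high salt replicate 3, second for Avpr1a, had a contractile mean of 11.79, and high salt replicate 1, lowest for Avpr1a, one of 11.91. Among 5206 genes at or above the median level, those most like Avpr1a were Ift172 (Pearson r = 0.975) and Filip1l (r = 0.953). Only these 2 of the 5206 had an r above 0.95, and likeness over 6 arrays carries little weight. The differences between diets moved with the array left out, to -0.08 without low salt replicate 3 and -0.38 without high salt replicate 3.

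**Figure D3:**
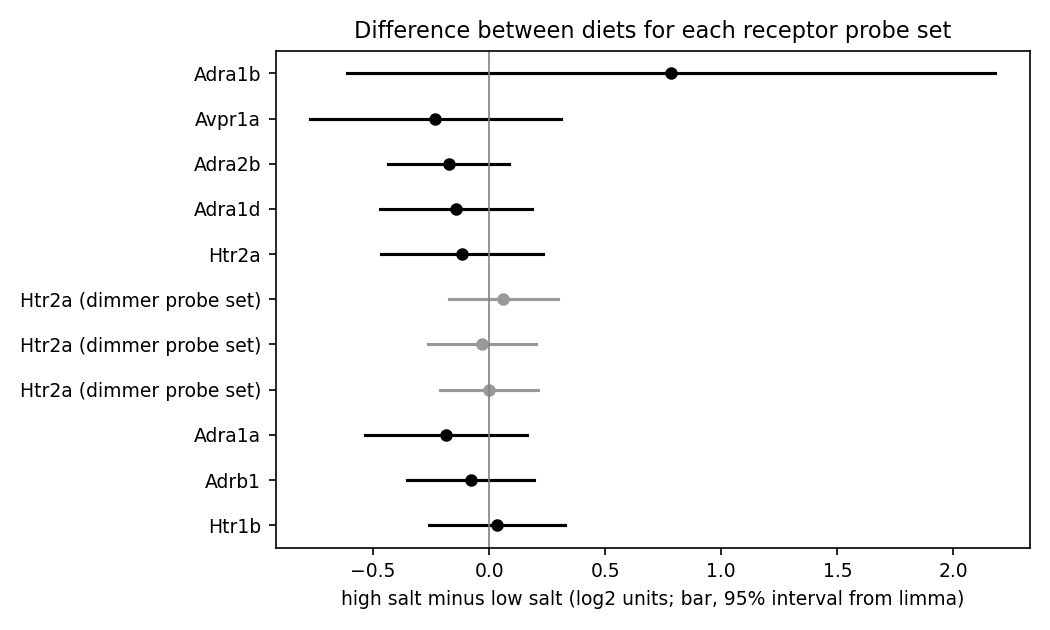
Difference between diets (high salt minus low salt, log2 units) for the 11 probe sets of the 8 receptors, brightest receptor at the top, with the 95% interval from limma and the 3 dimmer Htr2a probe sets in grey. Every interval crosses 0, and that of Adra1b, from -0.61 to 2.18, is the widest.

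Across the 8 receptors, 0 passed the test at an adjusted p below 0.05 and 0 had an unadjusted p below 0.05 (limma). Over all 15866 probe sets the shares were 0% after adjustment and 5.33% before it (4.63% higher and 0.7% lower on high salt). The difference was negative for 6 receptors and positive for 2, beside 44.9% negative over all probe sets and 4161 negative of 10411 genes with 1 probe set each. The receptors' median was -0.13 log2 units, against a median of 0.07 over all 10411 genes. The 22 genes of other tissues had nearly the same median, -0.12, with 18 of 22 negative. For these genes low salt replicate 1 was the highest array in 16 of 22, and for the receptors in 5 of 8, against 29.1% of all genes. The receptors' median was -0.04 without low salt replicate 1.

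The related receptors were dim as well. Among 21 other adrenergic, serotonin, vasopressin, oxytocin and neuropeptide Y receptors measured, 0 had a mean above the brightest gene of other tissues. The brightest were Htr5a (7.96), Npy4r (7.61), Htr4 (7.53) and Htr6 (7.38). In the test 0 passed in either direction, and 19 of 21 differences were negative, with a median of -0.09. The diets did not overlap for 5 of 21 (Htr2b, Htr3b, Htr5b, Htr6 and Oxtr), all lower on high salt, beside 3.93% of all probe sets and 3 of the 22 genes of other tissues. Those with the lowest p were Htr3b (-0.24 ± 0.11), Htr5a (-0.36 ± 0.17) and Htr6 (-0.27 ± 0.14; SE, limma adjusted p = 0.803 each).

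Genes that make, store and clear the transmitters were mostly dim. Of 13 measured, 4 exceeded the brightest gene of other tissues. Maoa (10.7) and Maob (10.7) encode the monoamine oxidases that break down noradrenaline and serotonin, and Npy (10.3) encodes neuropeptide Y. Maoa and Maob were low on the same arrays as Adra1b, which held for 2 of 13 genes here (15.4%), beside 20.7% of all genes. Npy read 9.77, 10.8 and 9.98 on high salt and 10.2, 10.1 and 10.8 on low salt, with a difference of -0.19 ± 0.32 (SE). Avp, which encodes vasopressin, was uneven, at 8.52, 9.74 and 7.74 on high salt and 8.69, 7.55 and 7.68 on low salt. High salt replicates 1 and 2 and low salt replicate 1 were higher than the other 3 arrays, and the difference was 0.69 ± 0.57 (SE). On those other 3 arrays Avp lay within the range of the means of the genes of other tissues.

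Among these genes the noradrenaline transporter Slc6a2 had the lowest p. It read 7.20, 7.37 and 7.35 on high salt and 7.81, 7.47 and 7.69 on low salt, a difference of -0.35 ± 0.12 with no overlap, at an unadjusted p of 0.0313 and an adjusted p of 0.803 (limma). Its mean of 7.48 lay within the range of the genes of other tissues. Slc22a3, an extraneuronal carrier of monoamines, differed by -0.70 ± 0.32, and the vesicular carrier Slc18a1 by -0.14 ± 0.10. In the list 0 of 13 passed, with 8 negative differences and a median of -0.07.

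Downstream of the receptors, on the Gq and calcium side 16 of 22 (72.7%) exceeded the brightest gene of other tissues, as 62.5% of all genes did, led by Mylk (12.97), the kinase that starts contraction. The lowest p were those of the protein kinases C Prkcd, with a difference of 0.59 ± 0.22 and no overlap between diets, and Prkcb (1.46 ± 0.73), and of the phospholipase Plcb3 (-0.33 ± 0.20; SE, limma adjusted p = 0.803 each). Prkcb was low on the same arrays as Adra1b, at 10.4, 10.7 and 10.4 on high salt and 7.82, 10.7 and 8.58 on low salt. With Rhoa it made 2 of 22 genes of this list (9.09%) of which this held, beside 20.7% of all genes. Of the 22 genes 15 had a negative difference, with a median of -0.09, and 0 passed.

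On the side of Gs, Gi and cAMP, 14 of 22 genes (63.6%, near the 62.5% of all genes) exceeded the brightest gene of other tissues. Prkar1a (12.7), a regulatory subunit of the cAMP-dependent kinase, was the brightest. The adenylyl cyclase Adcy5 differed by 0.36 ± 0.20, the kinase subunit Prkaca by -0.25 ± 0.15 and the phosphodiesterase Pde4d by -0.17 ± 0.11 (SE, limma adjusted p = 0.803 each). Here 13 of 22 differences were negative, with a median of -0.11, and 0 passed. Of these 22 genes 2 (9.09%) were low on the same arrays as Adra1b, beside 20.7% of all genes.

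Kinases, arrestins and other partners that end or shape receptor signals differed in both directions, 7 of 13 positive and 6 negative, with a median of 0.01 and 0 passing. That median turned negative with the arrays centred on their medians (-0.12) or quantile normalized (-0.07). Rgs2 (10.4), which speeds the shut-off of Gq, was the brightest. Rgs4, of the same family, read 9.32, 9.05 and 9.79 on high salt and 10.1, 10.5 and 10.4 on low salt, a difference of -0.92 ± 0.22 with no overlap. Beta-arrestin 2 (Arrb2) differed by 0.47 ± 0.17, and the sorting nexin Snx27, which returns internalised receptors to the cell surface, by 0.42 ± 0.17. Snx27 was low on the same arrays as Adra1b, which held for 2 of 13 genes here (15.4%), beside 20.7% of all genes. Rgs4, Arrb2 and Snx27 had unadjusted p values of 0.00639, 0.0359 and 0.0482, and an adjusted p of 0.803 each (limma).

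The other probe set of Rhoa was not examined. Besides it, several pathway genes had other, dimmer probe sets, 9 in all for 8 genes among those named here. Of these 9, 5 were opposite in sign to the brighter probe set, namely both further sets of Prkar1a (0.38 and 0.61) and those of Adcy5 (-0.14), Rgs2 (-0.08) and Snx27 (-0.11). Those of Rgs4 (-0.29) and Prkcb (0.73) had the same sign and a smaller difference. The diets overlapped in the dimmer set of Rgs4, at 7.92, 7.85 and 8.52 on high salt and 8.07, 8.64 and 8.45 on low salt.

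**Figure D4:**
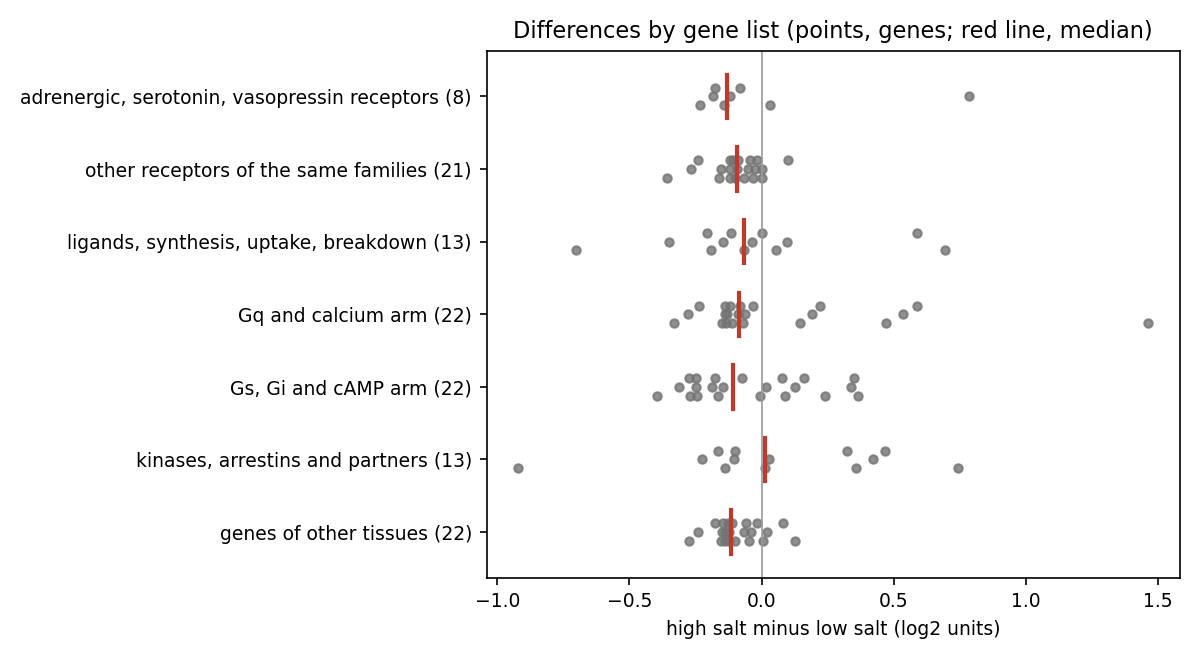
Difference between diets (high salt minus low salt, log2 units) for each gene of 7 lists, with 1 point per gene and a red line at the median of the list. The medians lie between -0.13 for the 8 receptors and 0.01 for kinases, arrestins and partners, and Adra1b (0.78) stands apart from the other receptors.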

How the data were processed

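Gene expression was measured on 6 Affymetrix rat arrays, 1 per pool of arteries, after 2 rounds of amplification per the labels. The authors deposited 1 log2 value per probe set and array, made with RMA per the submitters' processing notes, its version not given in the sources used here. The log base is read from the value range and the use of RMA. Of 15923 rows, 57 control probe sets were left out. Gene symbols came from the platform's annotation, where 12783 of 15866 probe sets had 1 symbol, 312 several and 2771 none, and 12748 of the first kind matched RefSeq genes of the assembly GRCr8 by identifier.

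High salt was compared with low salt by limma 3.58.1 in R 4.3.3 (lmFit, eBayes, no block), on all 15866 probe sets, with Benjamini-Hochberg adjustment, and an adjusted p below 0.05 counted as passing. The fit was tested on simulated data. The number of arrays limits the precision, and replicates are pools whose spread holds animal and technical error together. Same-numbered arrays did not deviate together (correlation of deviations 0.04, -0.27 and 0.04). This check cannot exclude pairing, since an array unlike the others of its diet can hide a shared deviation. The receptors and gene lists were chosen with earlier results of these data known.

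Named in the text are all receptors, the 4 brightest of the related receptors, the brightest gene of the other pathway lists and the 3 of lowest p in every pathway list, and the 2 genes most like the 3 brightest receptors. Rhoa, Maob, Npy, Avp, the related receptors Htr2b, Htr5b and Oxtr, and the marker genes other than the brightest are named beyond this rule. As alternatives, arrays were centred on their medians or quantile normalized, probe sets under the 40th percentile of mean level were dropped, and variances were trended or robust. Arrays were weighted or left out in turn, and the replicate number entered as a block. A gene's probe sets were averaged, the fit was run anew on 1 probe set for every gene, and an adjusted p below 0.1 was allowed.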

Additional observations from a re-analysis of the deposited data

How the results depend on the processing

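Of 15866 probe sets 0 passed in the limma fit and in each of 15 alternatives for that count, where an unadjusted p below 0.05 was reached by 846 probe sets (735 higher and 111 lower on high salt), by 384 higher and 433 lower after median centring, and by 2026 higher and 696 lower without low salt replicate 2, where the lowest adjusted p was 0.0502 (limma). Median centring moved the median of all probe sets to -0.11, from 0.03, so that differences of about 0.1 cannot be told apart from the scaling. The receptors kept the sign of their difference under the alternatives run, except Htr1b, which stood at -0.10 after median centring and -0.066 without high salt replicate 3. With 1 array left out, differences ran from 0.35 to 1.45 for Adra1b, -0.38 to -0.08 for Avpr1a, -0.23 to -0.10 for Adra2b, -0.21 to -0.04 for Adra1d, -0.32 to -0.09 for Adra1a, -0.19 to -0.01 for Htr2a, -0.12 to -0.0032 for Adrb1 and -0.066 to 0.10 for Htr1b. With array weights, whose estimate did not reach its convergence tolerance, Adra1b stood at 1.19. The receptors' median was 0.28 above the 40th percentile of mean level, where only Adra1b and Avpr1a were left, and -0.20 to -0.04 with 1 array left out. After median centring the list medians were -0.22 for related receptors, -0.20 for transmitter genes and -0.25 for genes of other tissues, and with 1 array left out the last ran from -0.16 (without low salt replicate 2) to -0.011 (without low salt replicate 1). With 1 array left out the medians ran from -0.09 to -0.014 for the Gq and calcium side, -0.12 to -0.023 for Gs, Gi and cAMP, -0.15 to 0.0012 for transmitter genes, -0.12 to -0.06 for related receptors and -0.035 to 0.07 for kinases, arrestins and partners. The replicate block left each difference as it was, with an adjusted p of 0.893 for Adra1b (limma), and changed no call. The table gives no detection calls, so no limit for dim probe sets was set.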
